A study of Mus musculus with 4 samples.

Results

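The genes described here are 5 receptors of the signalling lymphocyte activation molecule (SLAM) family (Slamf1, Slamf6, Slamf7, Ly9 and Cd84), the family's membrane-anchored ligand Cd48, and Sh2d1a, which encodes the adaptor SAP. An accessible region was attributed to one of them when it was the closest protein-coding gene, and this gave 47 of the 91266 regions in the authors' deposited list, for 7 of 21900 protein-coding genes. Regions were mapped by ATAC-seq, which reads where a transposase can insert into chromatin, in natural killer (NK) cells from the spleens of wild-type C57BL/6 mice. The cells had been kept for 72 h in a high dose (HD) or a low dose (LD) of interleukin-15 (IL-15), with 2 biological replicates per dose and about 75000 cells per replicate. IL-15 was thus present in all 4 samples, and the labels give neither its concentrations nor how the NK cells were purified.

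The deposited tables hold positions, given below as 1-based coordinates on mm10 (GRCm38). The authors named 3845 regions as up and 1275 as down between the doses. The tables give no value per sample, so no fold change, replicate error, depth or test could be attached to a region. The dose that served as the reference is not given in the sources used here, and the lists keep their deposited names. Cultures with fewer cells of one kind and cultures with less open chromatin per cell cannot be told apart in such bulk data.

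SLAM receptors are immunoglobulin-like proteins on blood cells, and most of them bind a copy of themselves on a neighbouring cell. Their cytoplasmic tails carry tyrosine motifs that dock SAP or the related EAT-2 adaptors. SAP brings in the kinase Fyn, whereas without these adaptors the same motifs can engage inhibitory phosphatases, so the adaptors set whether NK cells are activated or restrained when they meet another blood cell. In humans, loss of SAP causes X-linked lymphoproliferative disease.

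Of the 47 regions, 4 were in the down list, which holds 1.40% of all regions, and 0 were in the up list, which holds 4.21%. The 4 lay at Slamf6, with 3 regions, and at Sh2d1a, with 1 region. The 34 regions of Ly9, Slamf7, Cd48, Slamf1 and Cd84 were in neither list. One of the listed regions covers the start of Slamf6, and the 250 bases before the annotated start are therefore shown first, beside those of the other genes whose start lay in an accessible region that was not listed. The sequences are those of RefSeq on GRCm38.p6, read along the gene's strand. Capitals mark bases inside an accessible region.

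Slamf6, chr1:171917212-171917461, plus strand, capitals in a region of the down list: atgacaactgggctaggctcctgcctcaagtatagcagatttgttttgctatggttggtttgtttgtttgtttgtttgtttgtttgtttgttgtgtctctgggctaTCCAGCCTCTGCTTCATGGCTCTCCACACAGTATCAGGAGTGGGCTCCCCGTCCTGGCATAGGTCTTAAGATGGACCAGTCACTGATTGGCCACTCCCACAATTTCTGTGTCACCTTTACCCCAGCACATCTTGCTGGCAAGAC

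Slamf1, chr1:171766882-171767131, plus strand, capitals in a region of neither list: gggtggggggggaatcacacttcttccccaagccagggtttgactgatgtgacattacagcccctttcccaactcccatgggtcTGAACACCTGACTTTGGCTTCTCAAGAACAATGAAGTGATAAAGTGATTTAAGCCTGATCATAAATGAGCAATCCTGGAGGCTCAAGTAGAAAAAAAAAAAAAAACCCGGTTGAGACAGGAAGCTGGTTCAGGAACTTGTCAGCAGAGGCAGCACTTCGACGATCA

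Cd48, chr1:171681742-171681991, plus strand, capitals in a region of neither list: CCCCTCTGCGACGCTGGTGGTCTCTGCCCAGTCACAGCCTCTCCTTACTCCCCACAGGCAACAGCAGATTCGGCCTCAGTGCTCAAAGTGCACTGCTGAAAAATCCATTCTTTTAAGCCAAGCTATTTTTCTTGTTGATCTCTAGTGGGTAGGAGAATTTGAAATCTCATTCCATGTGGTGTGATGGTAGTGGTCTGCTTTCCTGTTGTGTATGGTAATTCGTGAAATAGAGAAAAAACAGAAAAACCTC

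Slamf7, chr1:171649000-171649249, minus strand, capitals in a region of neither list: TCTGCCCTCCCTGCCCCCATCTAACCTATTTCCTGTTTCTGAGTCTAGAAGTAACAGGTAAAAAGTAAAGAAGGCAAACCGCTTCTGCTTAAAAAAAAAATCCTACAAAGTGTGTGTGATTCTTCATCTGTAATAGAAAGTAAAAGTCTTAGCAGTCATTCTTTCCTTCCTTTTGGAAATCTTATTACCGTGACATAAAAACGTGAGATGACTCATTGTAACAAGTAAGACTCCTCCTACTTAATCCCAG

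The Slamf6 region entered this stretch from the gene's side and took in 144 of the 250 bases. In Slamf1 the accessible part was 166 of the 250 bases. Cd48 and Slamf7 had the whole stretch inside a region. Promoter sequences of 5 of the 7 genes were matched in the RefSeq table (Slamf1, Slamf6, Slamf7, Cd48 and Cd84).

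Slamf6 encodes Ly108, a receptor that binds itself on adjoining cells and is also used as a surface marker of less differentiated T cells. Its gene spans chromosome 1, 171917458 to 171948958 (gene ID 30925), and 6 regions were attributed to it, 3 of them in the down list. The first listed region, of 736 bp at 171917318 to 171918053, reached from 144 bp before the annotated start (171917462) to 591 bp past it. The second, of 458 bp at 171963548 to 171964005, lay 14.6 kb beyond the other end of the gene. The third, of 676 bp at 171966041 to 171966716, lay 17.1 kb beyond that end. So the listed regions of Slamf6 sat at its start and downstream of it, and the latter pair was separated by 2.04 kb.

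The 3 remaining Slamf6 regions lay within the gene and were in neither list. They measured 976 bp at 171920991 to 171921966, 150 bp at 171925066 to 171925215 and 831 bp at 171939050 to 171939880. The first and last of these were wider than each of the listed ones, so the listed regions were not the widest of the gene. The region within the gene nearest to its start began 3.53 kb past the lower end of the span. Exons and introns were not annotated here.

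**Figure D1:**
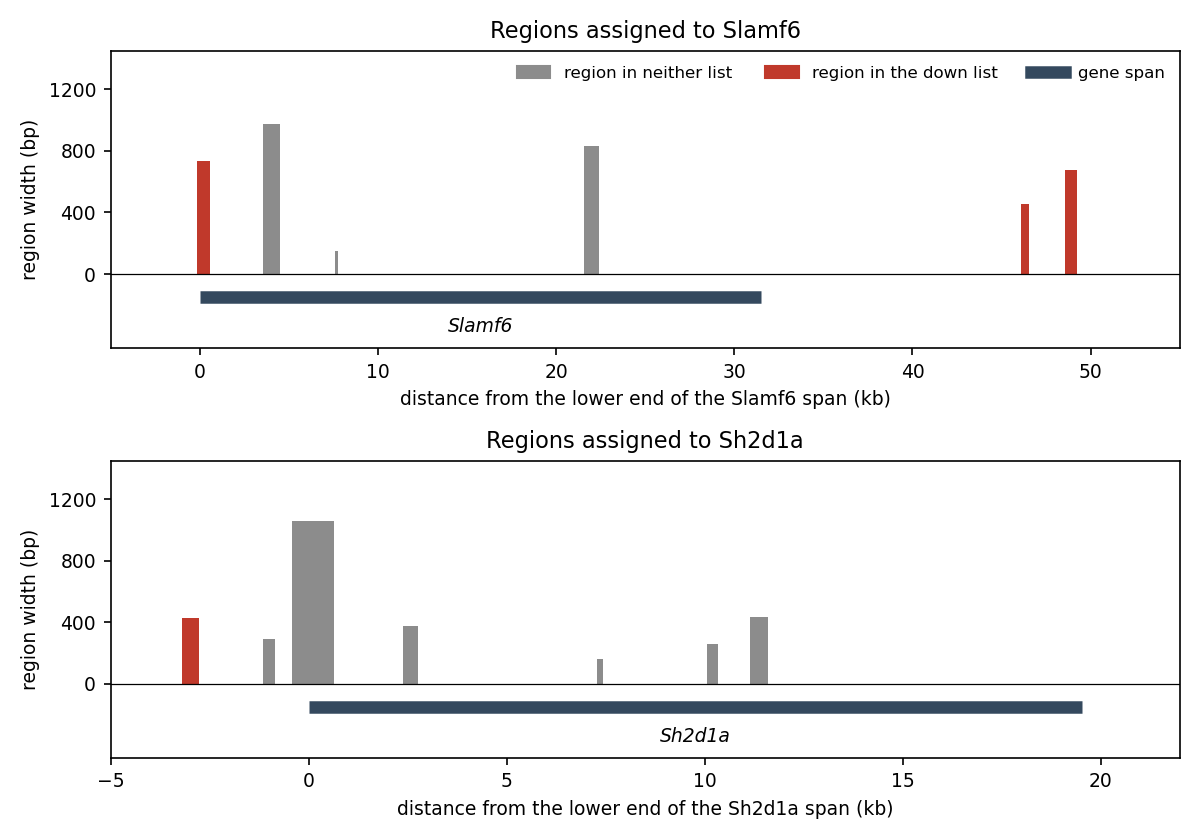
Accessible regions of Slamf6 (upper panel) and Sh2d1a (lower panel) by distance from the lower-numbered end of the gene span in kb, with bar height giving the region's width in bp. Red bars are the 3 Slamf6 regions and the 1 Sh2d1a region of the down list, grey bars are in neither list, and the dark line is the gene span.

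Both downstream regions were closer to Slamf6 than to any other protein-coding gene. The second-nearest was Vangl2, a planar cell polarity gene, at 37.0 and 34.2 kb. The 5 regions attributed to Vangl2 itself were in neither list. Whether the downstream pair acts on Slamf6 was not tested, and with the attribution limited to 10 kb around a gene the region at the start was the only listed region kept for Slamf6.

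The region at the Slamf6 start lay 45.5 kb from the downstream pair, with no other listed region between them. Over all listed regions of the genome, the median distance to the nearest other listed region was 61.4 kb, so each of the 3 had a listed neighbour closer than that median, namely another Slamf6 region. Leaving these out, the next region of either list towards lower coordinates was an up region of 564 bp nearest to Atf6, 1150 kb away. Towards higher coordinates it was an up region of 642 bp nearest to Pigm, 424 kb away. A set of 9 genes on either side of the SLAM genes (Itln1, Arhgap30, Usf1, F11r, Tstd1, Vangl2, Nhlh1, Ncstn and Copa) had 21 regions, none at Tstd1, and 0 of these were listed. That leaves a share of up to 15.5% for either list by the 95% Wilson interval, which holds the 4.21% up and 1.40% down of all regions.

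Sh2d1a encodes SAP, an adaptor that consists almost entirely of a single SH2 domain. It spans 42502565 to 42522097 on the X chromosome (gene ID 20400), and 1 of its 7 regions was in the down list. That region measured 429 bp at 42499366 to 42499794 and lay 2.77 kb outside the lower-numbered end of the gene. The next nearest protein-coding gene, Tex13d, was 7.41 kb from it. Between the listed region and the gene was a region of 294 bp, 859 bp from the gene, in neither list. The widest Sh2d1a region, of 1057 bp at 42502150 to 42503206, overlapped that same end of the gene and was in neither list either.

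The other 4 regions of Sh2d1a lay inside the gene and measured between 161 and 436 bp. The nearest other listed regions on the X chromosome were up regions 1160 kb away near Gria3 and 5500 kb away near Apln. Of all listed regions, 103 (2.01%) had no other listed region within 1000 kb, and the one at Sh2d1a was among them.

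The remaining receptors had no listed region. Ly9 encodes CD229, a receptor that binds itself, and had 6 regions of 232 to 1039 bp. The widest, at 171606650 to 171607688, overlapped the upper-numbered end of the gene (span 171588613 to 171607410), 1 lay inside and 4 lay outside, up to 11.5 kb away. Slamf7 encodes CRACC, an activating receptor of NK cells that works through EAT-2. It had 9 regions, the most of the 7 genes, of 206 to 1103 bp. Its annotated start (171648999) was covered by a region of 606 bp at 171648696 to 171649301, while its widest region lay 2.46 kb outside the gene (span 171632403 to 171653037).

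Slamf1 encodes CD150, the founding member of the family. It had 6 regions of 270 to 678 bp, and the smallest of them, at 171766966 to 171767235, covered the start (171767132). Cd84 spans the longest stretch of the 7 genes, 51.0 kb from 171839697 to 171890718. It also had 6 regions, of 221 to 746 bp. None of these covered its annotated start (171839697), and the nearest, of 565 bp, began 744 bp past it. Within Cd84, the 3 regions lay in the first part of the gene, and no region was found between 171849880 and the start region of Slamf6.

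Cd48 encodes a ligand tethered to the membrane by a lipid anchor and bound by the NK receptor 2B4. Its 7 regions measured 165 to 806 bp, and none was listed. Its annotated start (171681992) lay in a region of 744 bp at 171681594 to 171682337. A separate region of 394 bp at 171680927 to 171681320 overlapped the lower end of the gene span (171681245 to 171705258). In total 4 regions were inside Cd48 and 2 were outside it.

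**Figure D2:**
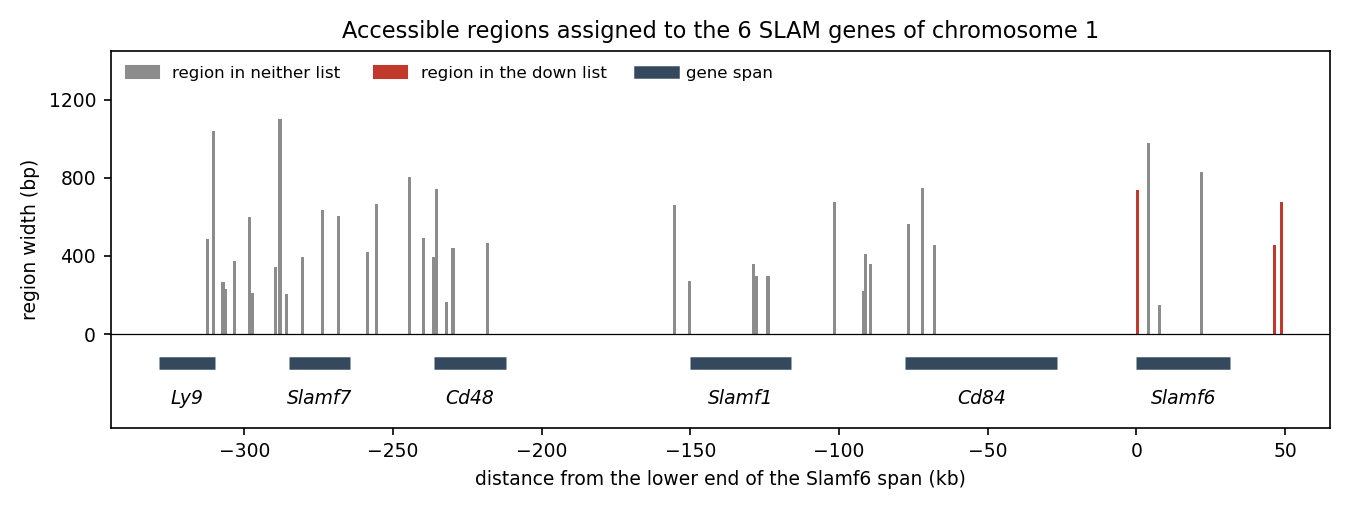
Accessible regions attributed to the 6 genes on chromosome 1, by distance from the lower-numbered end of the Slamf6 span in kb, with bar height giving the region's width in bp. The 3 red bars of the down list sit at and beyond Slamf6, and the grey bars of the other 5 genes are in neither list.

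The 6 genes on chromosome 1 lie side by side over 360 kb, from the lower end of Ly9 to the upper end of Slamf6. This stretch held 38 regions, or 10.5 per 100 kb, against 3.33 per 100 kb along chromosome 1 and 3.44 over all chromosomes. The median gap between neighbouring regions was 3.66 kb in the cluster and 6.91 kb genome-wide. The regions were unevenly placed. No region lay in the 67.4 kb between the last region of Cd84 and the start region of Slamf6. Another 62.4 kb without a region lay between the last region of Cd48 and the first of Slamf1. These gaps stood at the 94.4 and 93.9 percentiles of all gaps between regions. Both began inside a gene, Cd84 or Cd48, and the end of Cd84 lay 26.6 kb from the start region of Slamf6.

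Between 6 and 9 regions were attributed to each of the 7 genes. Among the 16387 protein-coding genes with at least 1 region, the median was 3 and the upper quartile 6, and 30.2% had 6 or more. Of the 47 regions, 26 (55.3%) overlapped their gene, against 61.1% of all regions. Within 1000 bp of an end of the nearest gene lay 9 (19.1%), against 16.9% of all regions. The annotated start was covered by a region in Slamf1, Slamf6, Slamf7 and Cd48, 4 of the 5 genes with a start in the table. Over protein-coding genes in that table, 9565 of 17492 (54.7%) had at least 1 start covered. A gene with more than 1 start was counted if any was covered, whereas each of the 5 genes had 1 start.

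**Figure D3:**
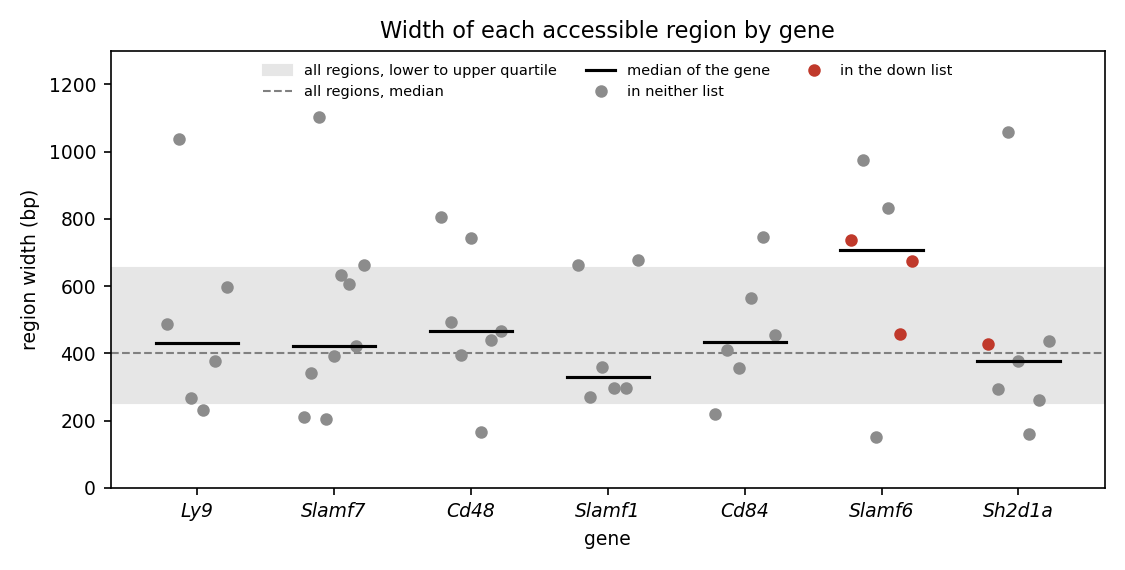
Width in bp of each of the 47 regions by gene, with red points for the down list, grey points for neither list and black lines for the median of a gene. The shaded band runs from 252 to 653 bp, the quartiles of all regions, and the dashed line is their median of 400 bp; the 4 red points lie between 429 and 736 bp.

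The regions had a median width of 436 bp (lower and upper quartiles 297 and 663 bp), close to the 400 bp of all regions. Medians by gene ran from 328.5 bp for Slamf1 to 706 bp for Slamf6. The 4 listed regions measured 429, 458, 676 and 736 bp. The 43 regions in neither list had a median of 421 bp and ranged from 150 to 1103 bp, so the listed widths lay inside the range of the others. All down regions of the genome had a median of 537 bp.

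The counts were set beside the lists as a whole. Down regions made up 8.51% of the 47 (95% Wilson interval 3.36 to 19.9%), and 1.40% of all regions. Up regions made up 0% of the 47, and 4.21% of all regions. A count of 0 in 47 allows a share of up to 6.38% when 3 counts are taken as the limit, and of up to 7.56% by the Wilson interval, so a shortage of up regions was not detectable with this number of regions. The down share rested on 1 gene. Without Slamf6, 1 of 41 regions was in the down list, or 2.44% (0.432 to 12.6%), which includes the share over all regions. Intervals cover counting error only and treat regions as independent, which neighbours in a locus are not, and no test was made.

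**Figure D4:**
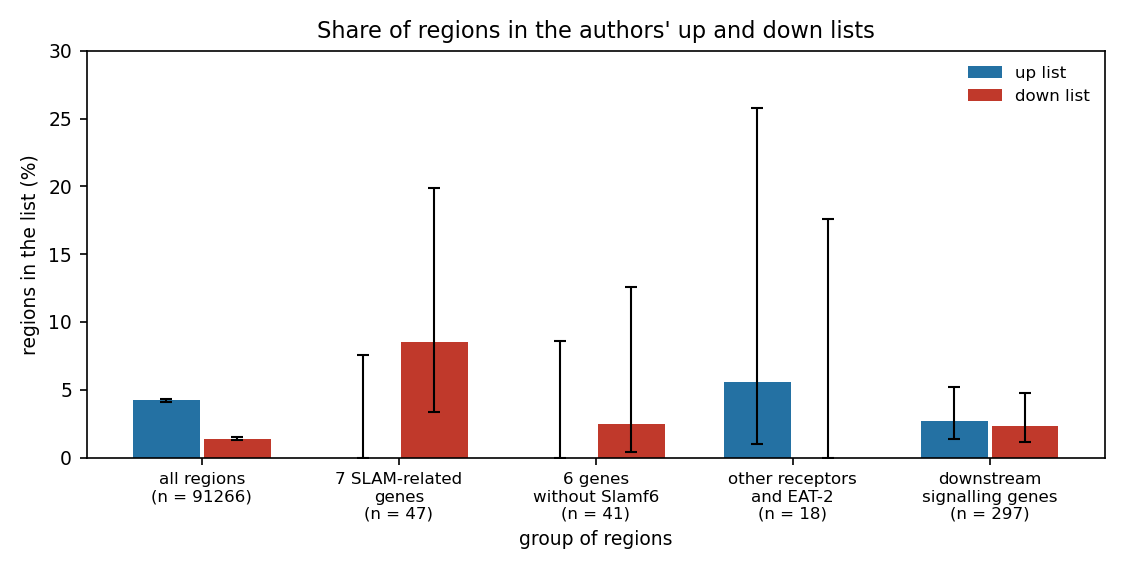
Percentage of regions in the up list (blue) and the down list (red) over all regions, the 7 genes, the same without Slamf6, other SLAM receptors with the EAT-2 adaptors, and downstream signalling genes. Error bars are 95% Wilson intervals for counting error; the down share of the 7 genes is 8.51%, and 2.44% without Slamf6.

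Slamf6 was then compared with genes that have the same number of regions. Of 869 protein-coding genes with exactly 6 regions, 50 (5.75%) had at least 1 down region and 3 (0.345%) had at least 3, Slamf6 being 1 of them. Over the 16387 genes with any region, 884 (5.39%) had at least 1 down region, 89 (0.543%) had at least 3, and 66 (0.403%) had at least 3 with no up region. Listed regions over a gene's start were also rare. Among the 9565 genes with at least 1 covered start, a down region covered a start in 23 (0.24%) and an up region in 64 (0.669%). Slamf6 was singled out after its values were seen, and these shares describe how common its pattern is.

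The 5 promoter stretches held fewer CG dinucleotides than the median promoter. Slamf6 held 1 in the 250 bases before its start, Slamf1, Slamf7 and Cd84 held 3 each and Cd48 held 4, against a median of 6 and a lower quartile of 2 over 32841 promoters of the same length. Only Slamf6, at the 18.8 percentile, was below that quartile, and the other 4 stood between the 37.8 and 44.4 percentiles. Their GC content was 38.0% in Slamf7, 46.0% in Cd48, 46.8% in Cd84, 47.2% in Slamf1 and 48.4% in Slamf6, and the median of all promoters was 52.4%.

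Short motifs of factor families that act in lymphocytes were searched on both strands of these stretches. The letters were TGTGGT for RUNX, AGGTGT for T-box, TTCNNNGAA for STAT factors, TGANTCA for AP-1, CTTTGA for TCF, GGAAGT for ETS, TATAAA for the TATA box and CCAAT for the CCAAT box. In Slamf6, 1 match was found, to the CCAAT box on the reverse strand from base -59 to -55 before the start, inside the listed region. This motif occurs in 33.9% of all promoters of that length. The letters of the other 7 motifs are not in the Slamf6 window.

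In the other genes, Slamf7 had an AP-1 match at -42 (in 6.75% of all promoters) and Slamf1 a T-box match at -163 (11.8%), each inside an accessible region. Cd48 had a RUNX match at -76 (14.0%) and a TCF match at -168 (13.8%), both inside its region. Cd84 had matches to RUNX, T-box and AP-1, none in an accessible region. No motif was present in more than 2 of the 5 genes. A match describes letters and not a bound site.

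Other genes of the pathway were taken from a set list of 18, to which 315 regions were attributed. The receptors Cd244a (2B4), Slamf8 and Slamf9 had 6, 0 and 3 regions, of which 0 were listed. Cd244a adjoins Ly9 on chromosome 1. Of the EAT-2 adaptors, Sh2d1b1 had 0 of 4 regions listed, while Sh2d1b2 had 1 of 5 in the up list, of 439 bp at chromosome 1, 170228568 to 170229006, 3.87 kb outside the gene. Over these receptors and adaptors together, 1 of 18 regions was up (5.56%, 95% Wilson interval 0.988 to 25.8%) and 0 were down, near the 4.21% and 1.40% of all regions.

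Among the 13 downstream genes, 8 of 297 regions were up (2.69%, 95% Wilson interval 1.37 to 5.22%) and 7 were down (2.36%, 1.15 to 4.78%). Both intervals hold the share over all regions, 4.21% up and 1.40% down. Fyn, the kinase recruited by SAP, held most of the down regions, with 4 of 58, together with 1 up region. A pair of its down regions lay side by side inside the gene, at chromosome 10, 39469201 to 39469776 and 39470092 to 39470595, another was also inside, and the remaining one lay 53.7 kb outside. Csk, an inhibitor of Src-family kinases, had 1 of 12 regions down, and Plcg2, a phospholipase, 1 of 21. Pik3r1, a regulatory subunit of phosphoinositide kinase, had 1 of 79 down and 4 up, the up regions between 47.5 and 434 kb outside the gene. Ptpn11 (the phosphatase SHP-2), Plcg1 and Prkcq had 1 up region each. Lck, Ptpn6 (SHP-1), Inpp5d (SHIP-1), Vav1, Bcl10 and Cbl had none in either list.

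The labelled cell type was checked by the regions attributed to marker genes, which show open chromatin and not expression. All 6 NK cell markers had regions, 101 in total, from 11 at Ncr1 and Tbx21 to 31 at Eomes. The 5 T cell markers had 6 regions, with 0 at Cd4 and Cd8a and 4 at Cd3e. Of the B cell markers reported, Ms4a1 and Cd79a had 0 and Pax5 had 6, and the 5 myeloid markers had 24, with 0 at Lyz2 and 16 at Itgam, an integrin that NK cells also carry. Of the 101 regions at NK cell markers, 8 were in the down list (7.92%, 95% Wilson interval 4.07 to 14.9%, against 1.40% of all regions) and 1 was in the up list (0.99%, 0.175 to 5.4%, against 4.21%). The down regions were 4 at Ncr1, 2 at Klrb1c and 1 each at Itga2 and Il2rb, while Eomes and Tbx21 had 0 listed regions. The T cell and myeloid markers and Pax5, with 6, 24 and 6 regions, had 0 listed regions. With so few regions, a count of 0 does not set them apart from the 4.21% up and 1.40% down of all regions. Marker regions do not measure how many cells of any type the cultures held, and their part in the listed regions of Slamf6 and Sh2d1a was not tested.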

How the data were processed

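ATAC-seq of 4 NK cell samples, 2 per IL-15 dose, was grouped by the dose in the sample titles. BWA, ArchR, MACS2, HOMER 4.11.1 and build mm10 are named, without roles, per the submitters' processing notes. The authors deposited region positions and widths in bp for the series as a whole, and lists of regions named up and down. Peak settings, pooling of replicates, the differential test and its threshold are not given in the sources used here. The tables used hold 0 columns of values per sample, so depth is unknown and the planned comparison of doses could not be made.

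Starts of the full list, 0-based, were raised by 1; all listed regions then matched one of it exactly. Python 3.11.15 with pandas 2.3.3 and scipy 1.17.1 attributed each region to the nearest protein-coding gene of the RefSeq GRCm38.p6 table (the assembly of mm10), with ties going to the nearer gene end. The attribution was tested on simulated data. Start sites came from the RefSeq promoter table, as did the 250 bases before them. All member genes are described, and other genes came from a set list. The members, lists and motifs were chosen with earlier results of these data known. Other rules of attribution, width limits and distances were tried. One marker gene of the set lists is not reported here.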

Additional observations from a re-analysis of the deposited data

How the results depend on the processing

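No paired analysis was possible because the tables hold no values per sample, and leaving out a replicate was not run for the same reason. Of 43 alternative values for 9 results, 29 stayed within 1.5 times the reported count or within its interval, and 14 did not, counting among these the mean width, for which no interval was set. The number of up regions at the 7 genes was 0 under every alternative run. For alternatives that only drop some of the 47 regions, this was fixed in advance. Limiting the attribution to the gene span, which removes regions outside genes by construction, left 26 regions, of which 1 was down; a limit of 10 kb around the gene left 2 down regions, those at the Slamf6 start and at Sh2d1a. Without Slamf6, a choice made after seeing the data, 1 down region was left. Regions at least as wide as the median of all numbered 27 and included all 4 down regions; over the genome, 5.32% of such regions were up and 2.07% down. On chromosome 1 alone, 4.62% of regions were up. The mean width at the 7 genes was 495 bp in place of a median of 436 bp. Within 3000 bp of a gene end lay 14 of the regions and within 100 bp lay 5. The depth of the libraries is unknown, so whether unlisted regions had too few reads to be listed cannot be judged.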
